A study of Mus musculus with 2 samples.

Results

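The genes described are 8 that carry or regulate electrical activity in the smooth muscle and pacemaker cells of hollow organs, namely *Kit*, *Ano1*, *Cacna1c*, *Cacna1h*, *Trpc6*, *Kcnma1*, *Kcnmb1* and *Kcnq1*. They were taken by gene name from the array annotation with all their probes, which gave 15 of 39429 probes and 8 of 29924 gene names. The data come from ureters of newborn (P0) wildtype NMRI mice, kept as explants in medium with 5 µM IWP-2, or with the solvent DMSO as control, for 18 h. IWP-2 inhibits PORCN, the acyltransferase that WNT ligands need for secretion. RNA was compared on 2 two-color arrays, each with 1 control pool and 1 IWP-2 pool of ureters from pups of the same sex. Per the study's methods, a pool held 5 or 6 ureters. In replicate 1 the pools were female and the IWP-2 RNA carried the red dye, and in replicate 2 they were male and it carried the green dye, so that sex and dye orientation cannot be told apart. All pools came from whole cultured ureters, which hold urothelium, fibroblasts, smooth muscle, vessels, nerves and immune cells. A lower signal from fewer cells of a type therefore cannot be told apart from less RNA per cell.

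The ureter moves urine by peristaltic waves that start in pacemaker cells near the renal pelvis and travel along the muscle layer. Smooth muscle cells depolarize, calcium enters through voltage-gated channels and contraction follows, while potassium channels bring the membrane potential back. In the gut, interstitial cells that carry the receptor tyrosine kinase KIT and the calcium-activated chloride channel ANO1 set this rhythm, and both genes are used as markers of such cells. The question addressed is whether transcripts of these channels differed when WNT secretion was blocked for less than a day.

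Of the 8 genes, *Trpc6* and *Kcnq1* fell most with IWP-2, on both arrays, and the other 6 lay closer to their control level. Among these 6, *Kit* was also lower on both arrays, with log2 ratios of -0.20 and -0.03. *Trpc6*, which encodes a cation channel opened by diacylglycerol, fell by 0.66 on the log2 scale (SE 0.07, n = 2 arrays, limma adjusted p = 0.0474). *Kcnq1*, which encodes the pore of a voltage-gated potassium channel, had a mean log2 ratio of IWP-2 over control of -0.58 (SE 0.08, limma adjusted p = 0.0786), which did not pass the test. The limma fit ran over 24180 probes, and p-values were adjusted over all of them. It called 1 of the 14 member probes tested lower and 0 higher, and 4 of the 14 had an unadjusted p under 0.05, as did 13.1% of all probes. Over all probes the same fit called 84 lower (0.347%) and 19 higher (0.0786%). The call of *Trpc6* lay close to the threshold and was lost in 3 of 8 alternative settings that tested it, with adjusted p-values from 0.0202 to 0.110. Both *Trpc6* and *Kcnq1* stand in the study's own table of lowered genes, whose intensities are on another scale than the signals here. That table was made from these same arrays, so their direction is not independent evidence.

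The inhibitor itself was checked on *Axin2*, a feedback inhibitor of WNT signaling and a common readout of the pathway. Its signal went from 181 in the control to 42.2 with IWP-2 in replicate 1 and from 154 to 46.7 in replicate 2, a mean log2 ratio of -1.91 (SE 0.11, limma adjusted p = 0.00927). A second *Axin2* probe lay near the floor of 15, with log2 ratios of -0.43 and -0.20. All 6 genes listed as WNT readout had a ratio below 0 on both arrays, against 29.1% of all genes tested. The limma fit called 5 of them lower, namely *Axin2*, *Lgr5*, *Notum*, *Sp5* and *Tcf7*, against 0.397% of all genes. This list was chosen with earlier results of these data known, so its counts are not an independent check of the inhibitor.

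The probes that carry the result were 60 bases long, and the first 30 bases of each are given with their positions on mm9, the build named in the array files. Whether they lie in coding or untranslated exons was not determined, as no annotation of this build was used. The *Trpc6* probe, on the plus strand at chr9:8680682-8680711, is shown because it gave the single call.

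Trpc6: agagtcctaatatcaactttttgggtgatt

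The *Kcnq1* probes, on the plus strand at chr7:150612887-150612916 and chr7:150612896-150612925, are shown because they are not independent of each other. Capitals mark the 21 bases that both printed stretches share, and the full probes share 51 bases.

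Kcnq1 probe 1: aatttcgtaGTATGATCTTGATTGAGAGAC
Kcnq1 probe 2: GTATGATCTTGATTGAGAGACttttccaaa

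The *Kcnma1* probes, all on the minus strand of chromosome 14, are shown because they lie apart on the gene and did not give the same log2 ratio. Probes 1 to 4 are numbered by falling mean signal, and along the direction of transcription probe 4 comes first (chr14:24130946-24130975), followed by probe 1 (chr14:24126309-24126338), probe 3 (chr14:24118731-24118760) and probe 2 (chr14:24111738-24111767).

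Kcnma1 probe 4: tggtgatctgttctgcaaagctctgaaaac
Kcnma1 probe 1: tgggtgggcagtcaatgtatacatgtaaat
Kcnma1 probe 3: agattccttgatgcacatttctcttctttc
Kcnma1 probe 2: agagcgtggtttgtttctttgtctttcaca

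**Figure D1:**
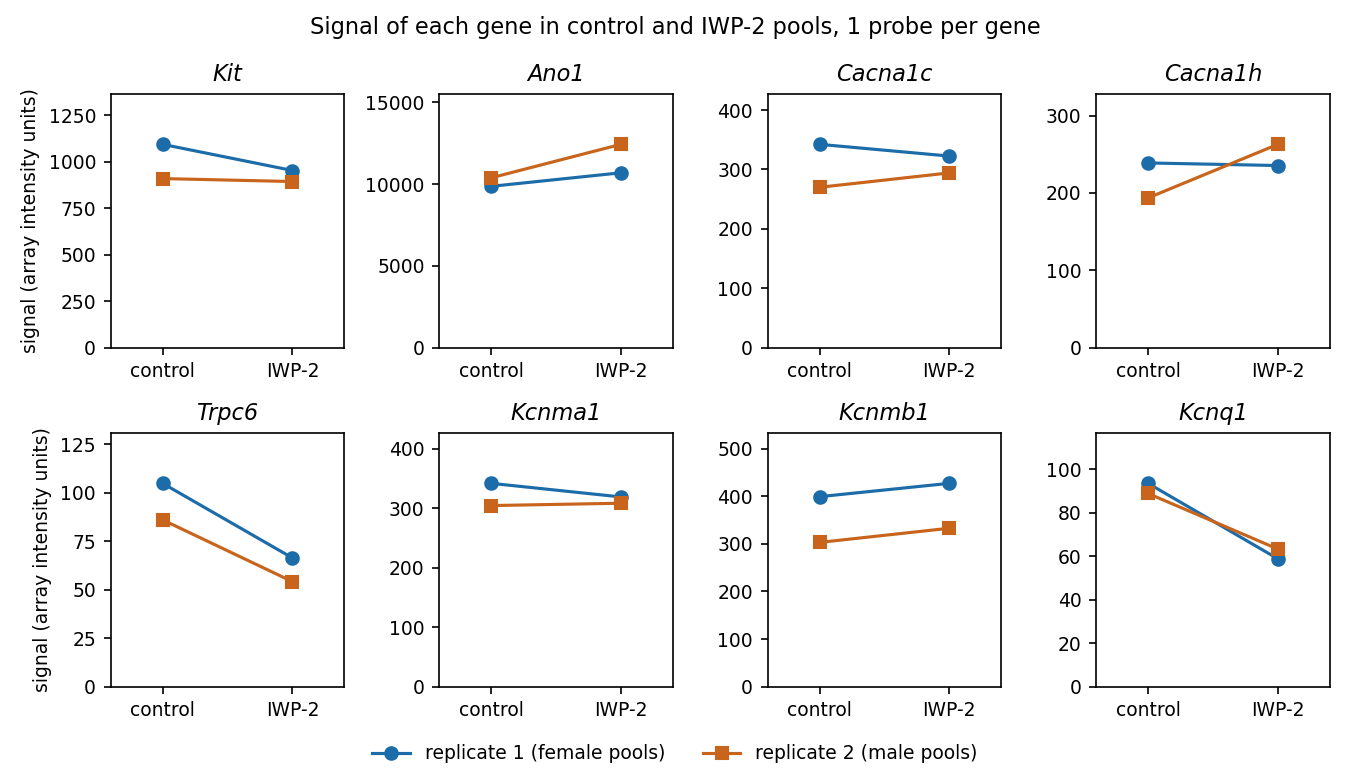
Signal in array intensity units (y axis, from 0, on a scale of its own in each panel) of the control and IWP-2 pool for the brightest probe of each of the 8 genes. Lines join the pools of 1 array, blue circles for replicate 1 (female pools) and orange squares for replicate 2 (male pools), and only *Trpc6* and *Kcnq1* slope down steeply on both arrays.

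Among the genes of pacemaker-like cells, *Kit* measured 1093 in the control and 952 with IWP-2 in replicate 1, and 909 and 893 in replicate 2 in array intensity units. The IWP-2 signal of replicate 1 lay between both control signals, so the groups overlapped. The log2 ratios were -0.20 and -0.03, with a mean of -0.11 (SE 0.08, limma adjusted p = 0.710) and a 95% interval of the fit from -0.31 to 0.09. *Ano1*, the chloride channel, had signals of 9869 and 10698 in replicate 1 and of 10389 and 12439 in replicate 2. Both IWP-2 signals lay above both control signals, and all 7 kept spots had a ratio above 0. The mean log2 ratio was 0.19 (SE 0.08, limma adjusted p = 0.398), with an interval from -0.01 to 0.38 that includes 0. *Kit* and *Ano1* are each represented by 1 probe. Which cells of the ureter gave either signal was not tested.

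KIT is also carried by mast cells and melanocytes. Of 10 mast cell markers, 7 were tested, and 6 of them had log2 ratios above 0 on both arrays, against 25.5% of all genes tested. None passed the limma test (3 with an unadjusted p under 0.05, which 12.1% of all genes tested had). *Cma1*, *Cpa3* and *Mcpt4*, which encode mast cell proteases, had the ratios largest in size, with means of 0.39, 0.36 and 0.34. Most of the summed signal of the list came from *Gata2*, which other cells also express. Without it, the sum was 650 in the control and 795 with IWP-2 in replicate 1, and 1392 and 1699 in replicate 2, while *Fcer1a*, *Ms4a2* and *Mrgprb1* lay at the floor in all channels. Of the melanocyte markers only *Pmel* and *Mitf* were tested, with mean log2 ratios of 0.04 and -0.03, and *Dct*, *Tyr*, *Tyrp1* and *Mlana* lay at the floor. The part of mast cells in the *Kit* signal was not tested.

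Of the voltage-gated calcium channels, *Cacna1c*, the pore of the L-type channel that carries the calcium for contraction, had signals of 342 in the control and 323 with IWP-2 in replicate 1. In replicate 2 the signals were 270 and 294. The arrays thus pointed in opposite directions, with log2 ratios of -0.09 and 0.12 and a mean of 0.02 (SE 0.08, limma adjusted p = 0.984, 95% interval -0.19 to 0.23). A second *Cacna1c* probe lay at or just above the floor in every channel and carries no information on a change. *Cacna1h*, the pore of a T-type channel that opens at low voltage, had signals of 239 and 236 in replicate 1 and of 194 and 263 in replicate 2. Its log2 ratio was -0.02 in the female pools and 0.44 in the male pools, with a mean of 0.21 (SE 0.12, limma adjusted p = 0.599, 95% interval -0.10 to 0.52). In replicate 2 the 4 spots ranged from 0.37 to 0.52 and in replicate 1 from -0.05 to 0.02, so that the difference between the arrays was larger than the spread of the spots. A dimmer *Cacna1h* probe went the same way, with log2 ratios of -0.18 and 0.25 (limma adjusted p = 0.980), and the last one lay at the floor in all 4 channels and was not tested. With 1 array of each sex and dye orientation, the difference between the arrays was not tested.

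*Trpc6* encodes a receptor-operated cation channel that depolarizes smooth muscle and admits calcium. Its signal was 105 in the control and 66.3 with IWP-2 in replicate 1, and 86.0 and 54.1 in replicate 2. Both IWP-2 signals lay under both control signals, and each of the 8 spots had a log2 ratio below 0. The ratios of the arrays, -0.66 and -0.67, were nearly equal, which corresponds to a 1.58-fold lower signal with IWP-2. The spots ranged from -0.78 to -0.57 in replicate 1 and from -0.75 to -0.55 in replicate 2. The 95% interval of the mean was -0.84 to -0.48. The gene has 1 probe, and its control signal in replicate 2 lay under 100, so it did not pass the combined filter, which asks on both arrays for a control above 100 and at least a 1.5-fold difference.

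*Trpc6* was the only member with a mean change of 1.5-fold or more in its brightest probe. Over the log2 ratios of the 2 arrays, the genes nearest to it among 18148 others tested were *Gm41386*, *Esr1*, the estrogen receptor alpha gene, and *Pirt*, at Euclidean distances of 0.0140, 0.0302 and 0.0320. All were dimmer than 50 in every channel, and *Gm41386* lay at the floor in both IWP-2 pools. Their mean log2 ratios were -0.66, -0.66 and -0.65.

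**Figure D2:**
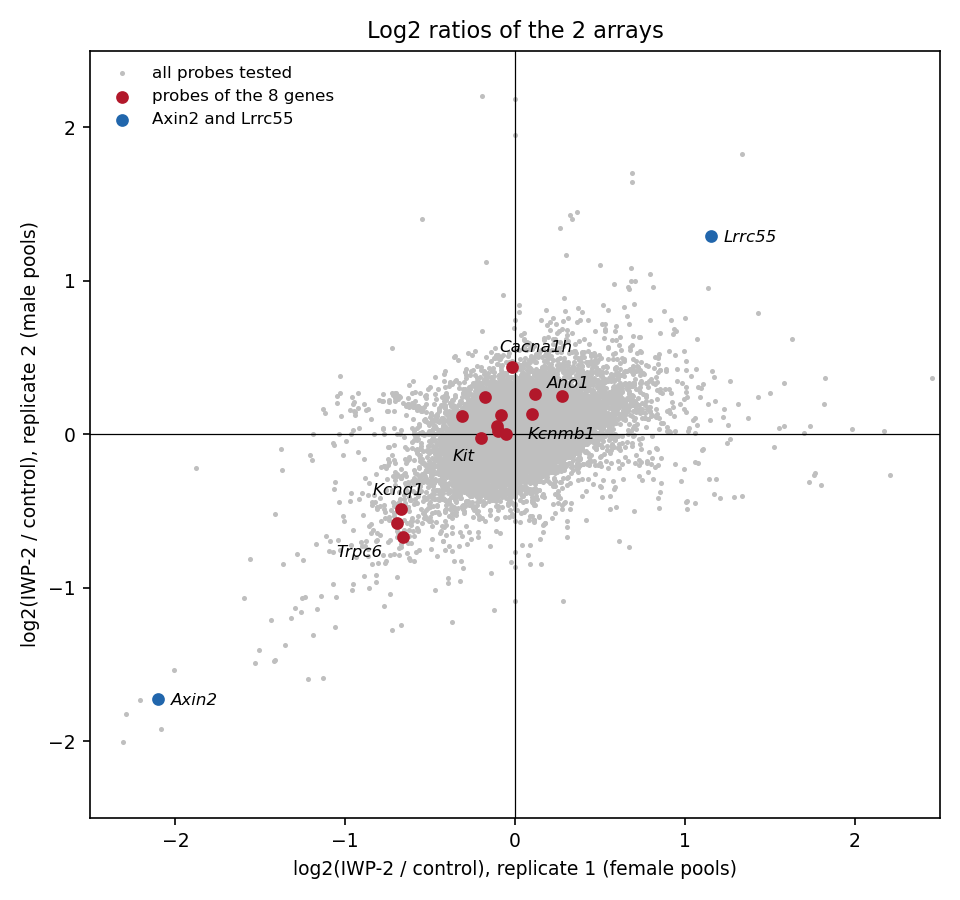
Log2 ratio of IWP-2 over control in replicate 1 (x axis) and replicate 2 (y axis) for all probes tested within the plotted range (gray) and for the 14 tested probes of the 8 genes (red). The probes of *Trpc6* and *Kcnq1* stand together at about -0.7 and -0.5 to -0.7, apart from the other red points, and *Axin2* and *Lrrc55* (blue) lie at opposite corners.

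Among the potassium channel genes, *Kcnq1* encodes KCNQ1 (Kv7.1), which pairs with KCNE subunits. Its brighter probe had signals of 93.5 in the control and 58.8 with IWP-2 in replicate 1, and of 88.8 and 63.3 in replicate 2. The overlapping probe had signals of 74.1 and 45.8 in replicate 1 and of 73.3 and 49.1 in replicate 2. For each probe both IWP-2 signals lay under both control signals, and all 7 kept spots had a ratio below 0. The log2 ratios were -0.67 and -0.49 for the brighter probe and -0.69 and -0.58 for the other, whose mean was -0.64 (SE 0.08, limma adjusted p = 0.0536). The 95% intervals, which are not adjusted for the number of probes, were -0.78 to -0.37 and -0.83 to -0.45. Neither probe passed the test, and each passed it in 2 alternatives (of 8 for the brighter and 7 for the other probe), with adjusted p-values from 0.0376 to 0.157 and from 0.0260 to 0.120. The control signals were under 100 on both arrays.

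*Kcnma1* encodes the pore of the BK channel, a potassium channel opened by calcium and voltage that damps contraction. Its brightest probe had signals of 342 in the control and 319 with IWP-2 in replicate 1, and of 304 and 308 in replicate 2. The groups overlapped, and the log2 ratios of -0.10 and 0.02 gave a mean of -0.04 (SE 0.08, limma adjusted p = 0.944, 95% interval -0.23 to 0.15). Probes 2 and 3 had mean log2 ratios of -0.03 and -0.10 (limma adjusted p = 0.975 and 0.874), each with a negative ratio in replicate 1 and a positive one in replicate 2. Probe 4, the farthest upstream, was the exception. Its signals were 77.6 and 94.1 in replicate 1 and 61.6 and 73.3 in replicate 2, and all 8 spots had a ratio above 0. The log2 ratios of 0.28 and 0.25 gave a mean of 0.26 (SE 0.07, limma adjusted p = 0.219, 95% interval 0.08 to 0.44), which did not pass the test. The groups overlapped for this probe, since the IWP-2 signal of replicate 2 lay under the control signal of replicate 1. The files list probe 4 for NM_010610 and other transcripts of the gene, so the probes need not measure the same set of transcripts.

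*Kcnmb1*, the smooth muscle beta subunit that raises the calcium sensitivity of the BK channel, had signals of 399 and 427 in replicate 1 and of 303 and 333 in replicate 2. The groups overlapped across arrays, while within each array the IWP-2 pool was higher in all 4 spots. The log2 ratios of 0.10 and 0.14 gave a mean of 0.12 (SE 0.07, limma adjusted p = 0.632, 95% interval -0.06 to 0.30).

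**Figure D3:**
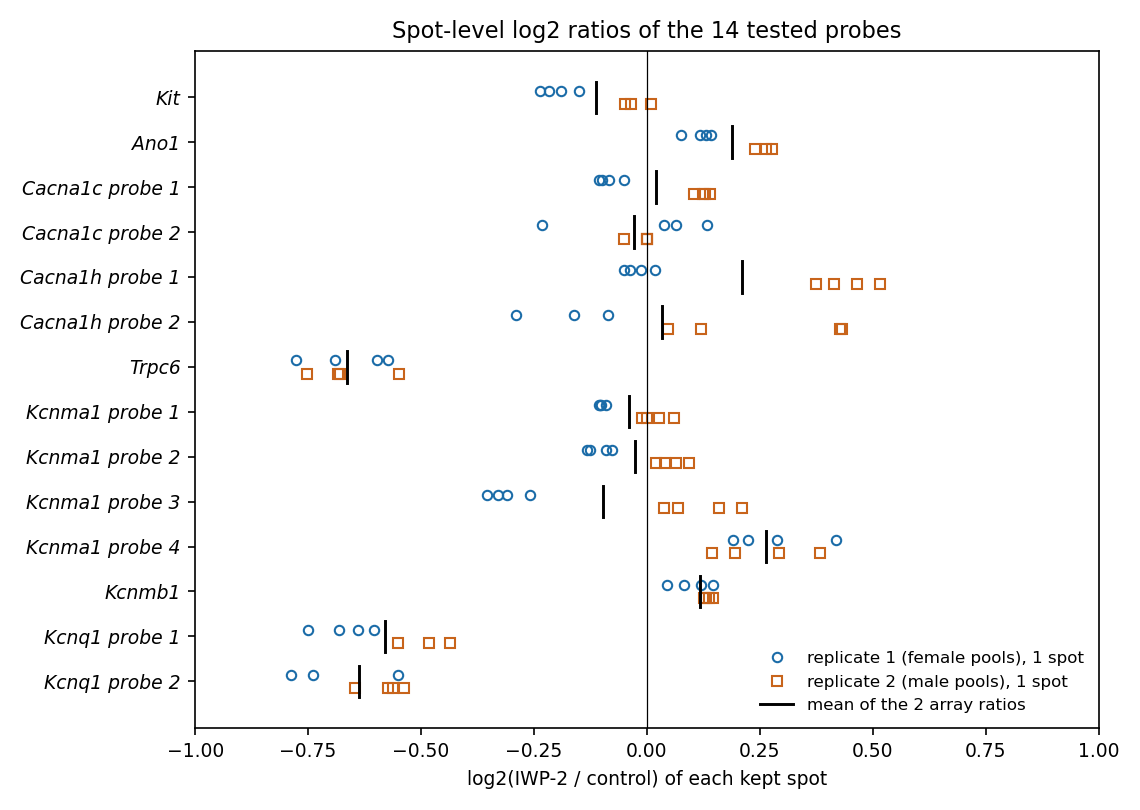
Log2 ratio of IWP-2 over control (x axis) of each kept spot for the 14 tested probes, blue circles for replicate 1 and orange squares for replicate 2, with a black bar at the mean of the 2 array ratios. Spots of *Trpc6* and *Kcnq1* all lie below -0.4, *Kcnma1* probe 4 lies above 0 on both arrays, and the *Cacna1h* spots separate by array.

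By the brightest probe, 3 of the 8 genes (*Kit*, *Trpc6* and *Kcnq1*) had a ratio below 0 on both arrays, against 29.1% of all 18149 genes tested, and 2 (*Ano1* and *Kcnmb1*) had one above 0 on both, against 25.5%. The other 3 had opposite signs. The median of the mean log2 ratio was -0.01 over the 8 genes and -0.01 over all genes. Of the 8 genes, 6 had a control signal above 100 on both arrays, and 0 of these were 1.5-fold lower on both, against 0.363% of all genes with such a signal. The count of ratios below 0 rested on the array used, at 3 of 8 genes in replicate 2 alone and 6 of 8 in replicate 1 alone.

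The wider set of excitability genes was described by 7 lists with 122 genes, of which 121 were on the array, 86 were tested and 35 lay at the floor in all channels. The limma fit called 1 of the 86 higher and 0 lower, against 0.0716% higher and 0.397% lower over all genes. An unadjusted p under 0.05 was found for 22 of the 86, against 12.1% of all genes. The gene that rose was *Lrrc55*, which encodes a gamma subunit of the BK channel that shifts its opening to lower voltages. Its signal went from 69.0 in the control to 154 with IWP-2 in replicate 1 and from 54.8 to 134 in replicate 2. Both IWP-2 signals lay above both control signals. The log2 ratios of 1.16 and 1.29 gave a mean of 1.22 (SE 0.08, limma adjusted p = 0.0116), and the call held in 9 of 9 alternatives that tested it. The other *Lrrc55* probe was at the floor throughout. The other genes of the BK and SK list had mean log2 ratios that did not pass the test, with -0.35 for *Lrrc26*, another gamma subunit gene, 0.45 for *Kcnn4* and 0.45 for *Kcnt1*, which was at the floor in the control of replicate 2.

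None of the 10 tested genes for other calcium channel subunits passed the limma test (3 with an unadjusted p under 0.05). On both arrays 7 had a ratio below 0 and 0 had one above 0. Over all genes tested these shares were 29.1% and 25.5%, which also apply to such counts for the lists below. *Cacna2d2* and *Cacna1i*, which are among the 7, had signals near the floor, from 15.2 to 20.5 and from 18.3 to 21.3. The list leaves out the members *Cacna1c* and *Cacna1h*, with means of 0.02 and 0.21. The median of the 10 genes was -0.17. The genes with the largest mean ratios were *Cacna1g*, the pore of another T-type channel (-0.33, limma adjusted p = 0.162), the auxiliary subunit gene *Cacnb2* (-0.30, limma adjusted p = 0.246) and *Cacna1d*, an L-type pore (-0.24, limma adjusted p = 0.319). The signal of *Cacna1g* was 276 in the control and 212 with IWP-2 in replicate 1 and 233 and 190 in replicate 2.

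Of the 9 tested pacemaker cell genes, 4 were below 0 and 1 above 0 on both arrays, and none passed the limma test (2 with an unadjusted p under 0.05). *Slc12a2*, the sodium-potassium-chloride cotransporter that loads cells with chloride for channels such as ANO1, had log2 ratios of -0.41 and -0.22 (limma adjusted p = 0.206), and it passed the test under an intensity trend of the variance. *Kitl*, the ligand of KIT, had ratios of -0.34 and -0.15 (limma adjusted p = 0.301), and *Ano6* had ratios of 0.08 and 0.21 (limma adjusted p = 0.527). The genes *Hcn3* and *Hcn4* for channels of the pacemaker current lay at the floor in all channels, and *Hcn2* had ratios of 0.14 and -0.18.

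None of the 15 tested genes of calcium stores and transport passed (1 with an unadjusted p under 0.05), with 4 below and 4 above 0 on both arrays and a median of 0.02. *Atp2b4*, *Atp2a2* (the calcium pump of the sarcoplasmic reticulum) and *Slc8a1* had mean log2 ratios of 0.23, 0.17 and 0.16. The signals of *Atp2b4* lay near the floor, from 19.2 to 23.8, and those of *Slc8a1* were dim, from 37.5 to 55.5. Of the other TRP and cation channel genes, 12 were tested, 4 were below and 5 above 0 on both arrays, and none passed the limma test (1 with an unadjusted p under 0.05). *Trpv4* had log2 ratios of 0.42 and 0.10 and *Trpc1* of 0.07 and 0.42, and *Trpc7* lay at the floor. The other Kv7 and KCNE genes had 5 members tested, of which 4 were above 0 on both arrays and none passed (2 with an unadjusted p under 0.05). *Kcnq5* and *Kcne4* had mean log2 ratios of 0.29 and 0.23, opposite in sign to *Kcnq1*, while the subunit genes *Kcne1* and *Kcne2* lay at the floor. Of the 25 other potassium channel genes tested, 8 were below and 5 above 0 on both arrays and none passed (9 with an unadjusted p under 0.05, against 12.1% of all genes). *Kcnj2*, *Kcnj12* and *Kcnab1* had mean log2 ratios of 0.56, -0.48 and -0.30, and the ratios of *Kcnj2* were 0.93 in replicate 1 and 0.18 in replicate 2. *Kcnab1* had dim signals, from 22.0 to 29.9.

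**Figure D4:**
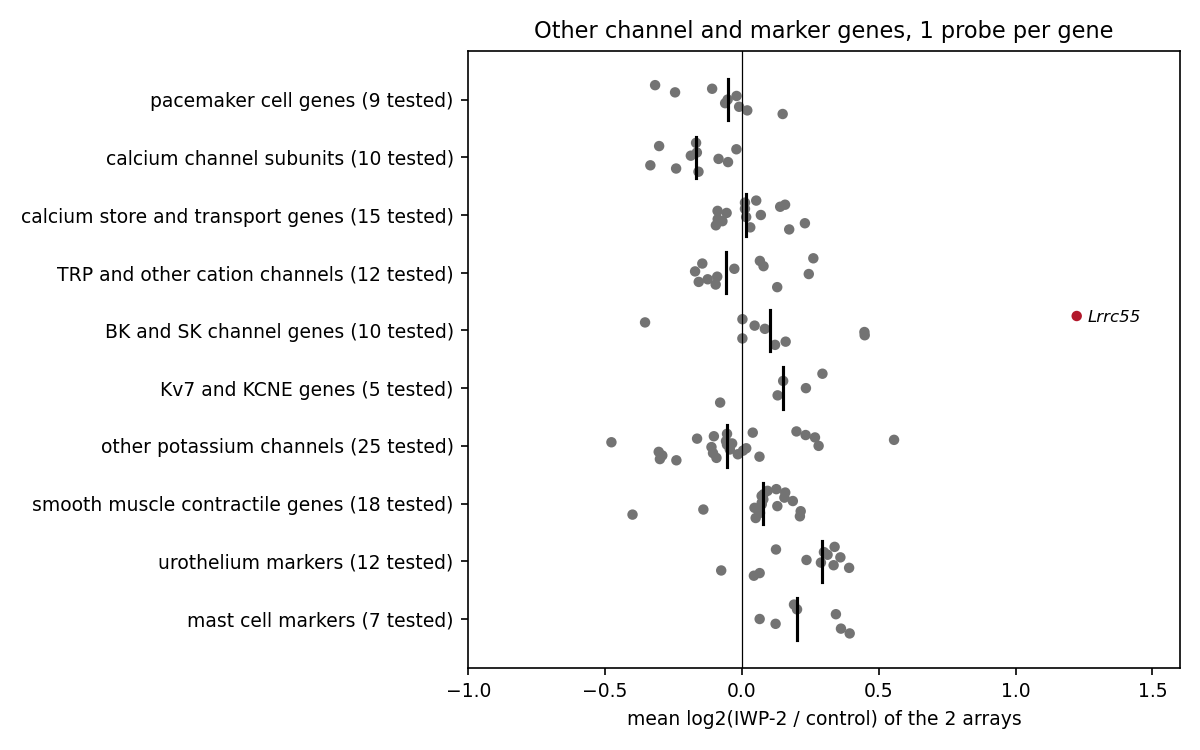
Mean log2 ratio of IWP-2 over control over the 2 arrays (x axis) for the tested genes of each list (y axis), 1 probe per gene, with a black bar at the median of the list and genes past an adjusted p of 0.05 in red. *Lrrc55* at 1.22 is the single red point, and the median is -0.17 for calcium channel subunits and 0.29 for urothelium markers.

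The labelled tissue was checked on markers. All 18 genes of the smooth muscle contractile list were tested, with summed signals in the controls of 185512 and 152676 and with IWP-2 of 180889 and 177684. None passed the limma test (1 with an unadjusted p under 0.05), 9 were above 0 and 0 below 0 on both arrays, and the median was -0.01 in replicate 1 and 0.23 in replicate 2. *Cald1* had log2 ratios of -1.05 and 0.25, *Des* of 0.12 and 0.30 and *Actg2* of 0.05 and 0.38. The 12 urothelium markers, led by *Grhl3* (0.39), *Upk1a* (0.36) and *Upk3b* (0.34), had a median of 0.29, with 9 above 0 on both arrays and none past the test (8 with an unadjusted p under 0.05, against 12.1% of all genes). Their medians were 0.44 in replicate 1 and 0.14 in replicate 2. Among the 10 pericyte and vascular smooth muscle markers none passed (4 with an unadjusted p under 0.05), and *Rgs5*, *Higd1b* and *Abcc9* had means of 0.46, -0.43 and -0.30. The 9 neuron and Schwann cell markers had a median of -0.18, with *Tubb3* and *Prph* at -0.29 and -0.24. Endothelial markers had a median of -0.06 (*Tek* 0.19, *Pecam1* 0.11 and *Cdh5* -0.10). Macrophage markers had a median of 0.15 (*Lyz2* 0.31, *Adgre1* 0.26 and *Ptprc* 0.23, the last with dim signals from 30.4 to 41.1). Of the 9 macrophage markers tested, 7 were above 0 and 1, *Mrc1* (mean -0.15), was below 0 on both arrays. None of them passed the limma test (3 with an unadjusted p under 0.05). The part of a shift in cell type shares in the values of *Trpc6*, *Kcnq1* and *Lrrc55* was not tested.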

How the data were processed

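The deposited array files hold spot intensities, which the authors obtained with Agilent Feature Extraction (12.2.0.7 in the file headers, 10.7.3.1 in the submitters' processing notes) as processed signals after background subtraction and dye normalization. The deposited files also give a log10 ratio of red over green, used to check the direction (equal to that of the processed signals within 0.001 for 82.8% and 83.1% of spots, the rest listed at 0). The authors' series table holds a score, a signed fold change with 1 decimal, with a median of 1 in each column. Where its log2 value was above 0.3 in size, the table had the sign of the arrays for 91.8% of probes in replicate 1 and 88.4% in replicate 2. Its treatment of dim probes stays unknown. There were 0 other columns of per-sample values.

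Outlier-flagged spots and the 17263 control spots per array were dropped, and 0 spots were saturated. Within each array the signals were put through loess (limma 3.58.1 under R 4.3.3), the replicate spots of each probe were averaged, and values under 15 were set to this floor before log2. Probes above background in either condition on both arrays, and not at the floor in all channels, were tested against 0 with lmFit and eBayes, with Benjamini-Hochberg adjustment at 0.05 and 1 residual degree of freedom. Each ratio lies within an array, so both pools of a replicate are paired by construction. Both arrays lie on 1 slide and 1 scan, so no batch could be fitted. With 1 pool per channel, the only spread measured is that between 2 arrays, and this number limits the precision. The eBayes step draws the variance of each probe toward one shared by all probes (4.369 prior degrees of freedom). P-values, SEs and intervals thus rest largely on that shared variance. For *Trpc6* the SD between the arrays was 0.0056 and the SE was 0.071. A gene with several probes is given by its brightest one over the 4 channels, a choice that does not use the ratio. Of these steps, only the fit and its adjustment were run on simulated log2 ratios, with noise shuffled between probes. The steps before the fit were not tested in this way.

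The members and lists were chosen with earlier results of these data known. Named are all members, list genes past the test or otherwise the 3 with the largest mean ratio in size, *Axin2*, and the 3 genes nearest to a member that changed 1.5-fold. *Lrrc26*, *Kcnn4*, *Kcnt1*, *Hcn2*, *Trpc7*, *Cacna2d2*, *Cacna1i* and the genes at the floor were named after their values were seen. Some genes that this rule names are not reported here. Gene names follow the array annotation. Alternatives changed the background, normalization, floor, filters, variance trend and probe summary.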

Additional observations from a re-analysis of the deposited data

How the results depend on the processing

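The number of member probes called by limma, 1 as reported, became 0 without further loess, with median centring, with a floor of 1 and with a filter on a mean signal above 100, which leaves *Trpc6* and *Kcnq1* out of the test. It became 3 (*Trpc6* and both *Kcnq1* probes) with normexp background correction and with an intensity trend. For *Trpc6* the adjusted p was 0.0523 without further loess, 0.0521 with median centring and 0.110 with a floor of 1, at mean log2 ratios of -0.67, -0.62 and -0.66. The excitability genes called rose from 1 to 2 with the intensity trend. The members 1.5-fold lower on both arrays, 0 as reported, became 1 with a control signal above 50. Leaving out a replicate gave 0 to 1 of them, and 3 to 6 members below 0. The sign turned for 2 probes near 0, the dim *Cacna1c* probe (0.013 with normexp and 0.0076 with a floor of 1) and *Kcnma1* probe 2 (0.013 with median centring). The cause of these changes was not tested, except where the filter removes a probe. Of the alternative counts, 44 lay within 1.5 times the reported ones and 10 did not. The 44 include counts that were 0 both as reported and in the alternative. No test was possible with 1 array, and the slide could not be fitted as a block.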
